A study of Drosophila melanogaster with 4 samples.

Results

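Ubiquitinated histone H2B was mapped by chromatin immunoprecipitation and sequencing in Oregon-R, a wild-type strain of Drosophila melanogaster, at the third larval instar. The parts of that map described here are the small chromosome 4, the heterochromatic sequences and the centromere ends of 4 chromosome arms. These parts held 340 of the 5627 enriched regions in the authors' combined list. Chromosome 4 held 66 of them on 1.35 Mb. The heterochromatic sequences 2LHet, 3LHet, 3RHet, XHet and YHet, called Het sequences here, held 46 on 5.99 Mb. The arm ends, meaning the 2 Mb at the centromere side of the assembled sequences 2L, 3L, 3R and X, held 228 on 8 Mb. Distances are counted from that end of each sequence, called the centromere end. How far it lies from the centromere itself was not measured and may differ between arms. The rule uses only the sequence name or the midpoint of a region, not its score or width, and it was set with earlier results of these data known. The same positions held 284 regions in the list of replicate 1 and 302 in that of replicate 2. Arm 2R and 2RHet were not analysed here.

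The series held 2 immunoprecipitated samples and 2 inputs of unselected chromatin, all from the same wild-type stage with no treatment named. Chromatin was selected with NRO3, a mouse monoclonal antibody raised against a peptide that mimics the ubiquitin branch point of human H2B. The 3 lists used were 1 for each immunoprecipitated replicate and 1 for the replicate set, and the inputs have no list here. The labels name no dissected tissue, so each list averages over the cell types of the larva, and they do not say whether the replicates came from separate collections, so their spread may be only technical. Read depth was unknown, because the lists give positions and a score per region but no counts, and no counting interval could be set on any value. The whole lists held 5135 regions in replicate 1 and 5150 in replicate 2.

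Ubiquitin is attached to H2B by the Rad6 and Bre1 enzymes as RNA polymerase II moves along a gene, and is removed by deubiquitinating enzymes, so the mark is known as one of transcribed gene bodies. Pericentric heterochromatin is rich in repeats and poor in genes, is packed with methylated H3K9 and the protein HP1, and still holds some active genes, light on 2L being a classic example. Chromosome 4 is an unusual case, since HP1 and H3K9 methylation spread over much of it while many of its genes, such as eyeless and cubitus interruptus, are expressed. The protein POF is known to bind many genes of this chromosome.

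The first comparison asked how much of each class was marked. Chromosome 4 was marked at an intermediate level, the Het sequences hardly at all, and the arm ends fell into unlike kinds, with 3R covered about as much as the body of its arm and 2L, 3L and X far less than theirs. On chromosome 4, enriched regions covered 13.8% of the bases in replicate 1 and 15.2% in replicate 2 (mean 14.5% ± 1.02, SD, n = 2), and 18.4% in the combined list. On the Het sequences together the covered share was 0.964% in replicate 1 and 1.22% in replicate 2 (mean 1.09% ± 0.183, SD, n = 2), and 1.76% in the combined list. The 4 arm ends together were covered at 11.9% in replicate 1 and 12.9% in replicate 2 (mean 12.4% ± 0.731, SD, n = 2), and at 14.7% in the combined list. The remainder of the same 4 arms, called arm interiors here, was covered at 24.9% in replicate 1, 26.0% in replicate 2 and 29.7% in the combined list.

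The gap between chromosome 4 and the Het sequences was 12.8 percentage points in replicate 1 and 14.0 in replicate 2, far beyond the spread between replicates. The arm ends minus chromosome 4 came to only -1.92 points in replicate 1 and -2.33 in replicate 2. Once 3R was left out of the arm ends, chromosome 4 exceeded them by 6.86 and 7.27 points. With 2 replicates no exact test of these differences can pass 0.05, since the classes were measured in the same 2 libraries and the smallest two-sided p that an exact permutation test of 2 pairs allows is 0.5. Repeats and assembly gaps were not measured, so a low covered share on the Het sequences cannot be told apart from sequence in which reads could not be placed.

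**Figure D1:**
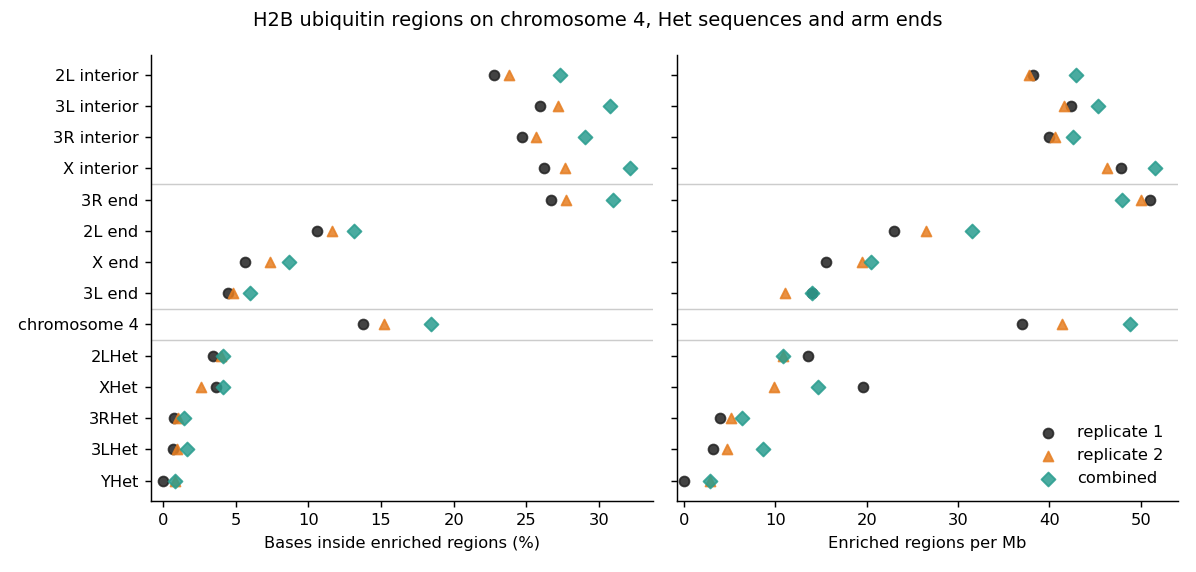
Covered share (left, % of bases) and number of regions per Mb (right) for each arm interior, arm end, chromosome 4 and Het sequence, with 1 point for each replicate and 1 for the combined list. The 3R end lies with the arm interiors at 26.7% and 27.7% in the replicates, while the 2L, X and 3L ends lie below chromosome 4 in all 3 lists.

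Coverage was then split into the number of regions and their width. Chromosome 4 had about as many regions per Mb as the arm interiors, but its regions were shorter. It held 37.0 regions per Mb in replicate 1 and 41.4 in replicate 2, against 41.9 and 41.5 in the arm interiors. Its regions averaged 3.72 and 3.67 kb in width in the replicates, while those of the interiors averaged 5.94 and 6.27 kb. As ratios to the interiors, its density was 0.882 and 0.998 and its mean width 0.626 and 0.585 in replicates 1 and 2.

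On the Het sequences both quantities were low, and density was the lower of the pair. They held 4.51 regions per Mb in replicate 1 and 5.34 in replicate 2, or 0.107 and 0.129 of the interior density. Their mean width was 2.14 and 2.29 kb, or 0.360 and 0.365 of the interior width. Pooled over 2L, 3L and X, the ends lay between the Het sequences and the arm interiors, again with density reduced more than width. Relative to the interiors of the same 3 arms, their density was 0.410 in replicate 1 and 0.454 in replicate 2. Their relative mean width was 0.660 and 0.671. By arm this held on 3L and X in all 3 lists, but on 2L it was clear only in replicate 1. In replicate 2 the 2L end held 26.5 regions per Mb against 37.8 in its interior, with mean widths of 4.43 against 6.29 kb. In the combined list width was the more reduced there, at 4.02 against 6.37 kb, with 31.5 against 42.9 regions per Mb.

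Broad regions made up a smaller share than in the whole list everywhere but at the 3R end. In the whole combined list 15.8% of regions were at least 10 kb wide. On chromosome 4 this width was reached by 2 of 66 regions (3.03%), and by 1 region in each replicate. No Het region reached it in any list. Of the arm-end regions 28 of 228 did (12.3%), and 19 of these 28 were on 3R, where they made up 19.8% of the regions. Without 3R the count was 9 of 132 (6.82%), of which 6 were on 2L, 2 on 3L and 1 on X.

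Long stretches without a region set the 3L and X ends and the Het sequences apart from chromosome 4 and from the arm interiors. Chromosome 4 had no gap of 100 kb or more between regions in the combined list, its longest being 94.4 kb at 233707 to 328135 (FlyBase release 5, as all positions here). The 3L end had 7 stretches of at least 100 kb without a region, which together took up 81.8% of it, and the X end had 7 that took up 78.6%, against 23.1% and 25.5% in the interiors of these arms. The 2L and 3R ends had 4 each and lay near their interiors, at 36.0% against 33.1% on 2L and 29.0% against 30.9% on 3R. On 3LHet and 3RHet such stretches took up 86.4% and 87.5%. Between neighbours, short gaps were in the majority on each sequence given here. Gaps under 10 kb made up 69.2% of the gaps on chromosome 4, 55.6% at the 3L end, 61.9% on 3LHet and 66.7% on 3RHet, against 70.6% to 77.9% in the arm interiors.

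On chromosome 4 regions were spread along the sequence, with gaps of 94.4, 91.0 and 88.5 kb among them, just under the 100 kb used above. All 14 bins of 100 kb held a region in the combined list, the last bin being a partial one in which replicate 2 had none. Coverage per bin ran from 2.48% in that last bin to 39.5% between 500 and 600 kb, where it was 34.8% in replicate 1 and 36.8% in replicate 2. Between 700 and 800 kb it was 8.95%, and both replicates were low there too, at 5.31% and 6.12%. The gaps from 716571 to 805051 and from 1234859 to 1325885 held no region of either replicate.

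The highest score on chromosome 4 was 1.30, at 89740 to 98080, and that region, 8.34 kb wide, had scores of 1.24 and 1.36 in the replicates. The score is the authors' own, its unit is not stated, and it is used here only to describe and rank regions. In the whole combined list 562 regions scored higher. The next highest was 1.22, at 1042098 to 1047922 (5.83 kb, 1.08 and 1.26 in replicates 1 and 2). The widest region of the chromosome, 12.5 kb at 566080 to 578584, ranked next at 1.21 and was 1 unbroken region in both replicates, which covered 99.8% and 98.1% of it. The second widest, 10.2 kb at 670400 to 680626, was less firmly placed. It was split into 2 regions in each replicate, which covered 62.1% and 76.4% of it, and scored 0.711. Next in width was 9.66 kb at 140748 to 150404 and was covered to 98.5% and 97.3%.

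The Het sequences carried their few regions in small groups separated by very long unmarked stretches. On 3RHet, which is 2.52 Mb long, all 16 regions lay between 1688432 and 2481658, and the first 1688 kb held no region in any of the 3 lists. On 3LHet, 2.56 Mb long, the stretches 1394217 to 2189607 (795 kb), 710189 to 1391971 (682 kb) and 1 to 594041 (594 kb) held none in any list. When regions less than 20 kb apart were joined, a limit chosen after the positions were seen, the 46 Het regions fell into 17 groups. The 8 groups of 3 or more regions held 34 of the 46, and 12 of the 17 groups contained a region found in both replicates. The largest were 6 regions within 24.8 kb at 2397160 to 2421966 on 3LHet and 6 within 17.7 kb at 1688432 to 1706142 on 3RHet. The same joining was not made in the other classes, so grouping is not shown to be particular to the Het sequences. Gaps under 10 kb made up 61.9% of the gaps on 3LHet and 66.7% on 3RHet. They made up 69.2% on chromosome 4, 55.6% to 75.8% at the arm ends and 70.6% to 77.9% in the arm interiors.

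The 2 highest Het scores were on 3LHet, and both of these regions were found in both replicates. The first, 1.08 at 2397160 to 2399908 (2.75 kb), scored 0.962 in replicate 1 and 1.23 in replicate 2. The second, 0.953 at 594042 to 597536, scored 0.879 and 1.04. The third Het score, 0.855, belonged to the single region of YHet at 304736 to 307664. That region was called in replicate 2 at 304738 to 307683 with a score of 1.26, higher than 83.4% of that list or equal to it, and replicate 1 held no region on YHet at all. Larval sex is not given in the labels.

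The widest Het region was on 2LHet, 8.40 kb at 24886 to 33280, with a combined score of 0.703. It was split into 2 regions in replicate 1 and was a single one in replicate 2. The other regions of 2LHet lay at 20182 to 22344 (score 0.463), 34200 to 36464 (0.558) and 167232 to 169618 (0.814). All 4 were found in both replicates. On 3RHet the region at 1819050 to 1824484 was the widest (5.44 kb, score 0.683), ahead of the one at 1691886 to 1695642 (3.76 kb, 0.469). XHet held 3 regions within 26.5 kb, at 59866 to 63542 (0.388), 75952 to 79000 (0.750) and 84660 to 86350 (0.358), and the last was missing from replicate 2. Coverage on 2LHet was 3.48% and 4.01% in replicates 1 and 2 and on XHet 3.66% and 2.65%, above the 0.680% and 0.945% of 3LHet and the 0.798% and 1.03% of 3RHet. These short sequences rest on 4 and 3 regions in the combined list, and XHet was the only one of the 10 sequences and arm ends with less coverage in replicate 2 than in replicate 1.

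The arm ends were compared with their interiors arm by arm. Coverage at the end of 3L was 4.49% in replicate 1 and 4.80% in replicate 2, and the end minus its interior was -21.4 and -22.4 percentage points. At the end of X it was 5.65% and 7.40%, with differences of -20.6 and -20.3 points. At the end of 2L it was 10.6% and 11.6%, with differences of -12.2 and -12.1 points. The 3R end went the other way by a small amount, at 26.7% and 27.7%, or 1.96 and 2.08 points above its interior. On each arm the replicates differed by less than 1 point in this measure. The differences between arms were larger than this spread, except for 3L against X, which in replicate 1 lay closer than the replicates of 3L. The limit of 0.5 on an exact p from 2 pairs applies here too. The sign on 3R depended on where the end was set, since the mean over replicates was -2.95 points with an end of 1 Mb and -1.31 with one of 3 Mb, against 2.02 with 2 Mb. On 2L, 3L and X the difference stayed below 0 at all 3 lengths, between -24.6 and -8.87 points.

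Within the ends of 2L and 3L, more than 50% of the marked sequence lay in the 500 kb farthest from the centromere, which was not so on X or 3R. At the end of 2L, 53.2% of the covered bases of the combined list lay in the 500 kb farthest from the centromere, with 54.1% in replicate 1 and 52.8% in replicate 2. At the end of 3L that share was 61.1%, with 67.2% and 61.8% in the replicates. On X the same 500 kb held 7.83% and on 3R 11.0%. By the farther 1 Mb the arms were less unlike, with 71.4% of the covered bases on 2L, 84.8% on 3L, 58.0% on 3R and 52.1% on X.

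Coverage by 250 kb bins shows where the change fell. On 3L the covered share was 13.4% between 1.75 and 2 Mb from the centromere end and 43.2% in the next bin outward, the latter from a single region of 114 kb. In the replicates these bins were at 10.8% and 10.5%, then at 43.1% and 43.0%. The first 1 Mb of that arm was covered at 0.915% in replicate 1 and 1.48% in replicate 2, close to the 0.680% and 0.945% of 3LHet. On 2L the rise lay inside the 2 Mb, from 12.7% in the bin of 1.5 to 1.75 Mb to 43.2% in the bin of 1.75 to 2 Mb. On X the lowest bins of the end were the 2 farthest from the centromere, at 3.77% and 1.65%, followed by 29.5% in the bin from 2 to 2.25 Mb and 71.9% between 3 and 3.25 Mb. On 3R the first 500 kb were already covered at 25.5%, and the most covered bins were those of 1 to 1.25 Mb, at 62.0%, and 1.25 to 1.5 Mb, at 54.3%. The bin of 1.75 to 2 Mb on 3R was at 3.10%, with 2.90% and 2.96% in the replicates, so the low stretch there lay far from the centromere end.

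**Figure D2:**
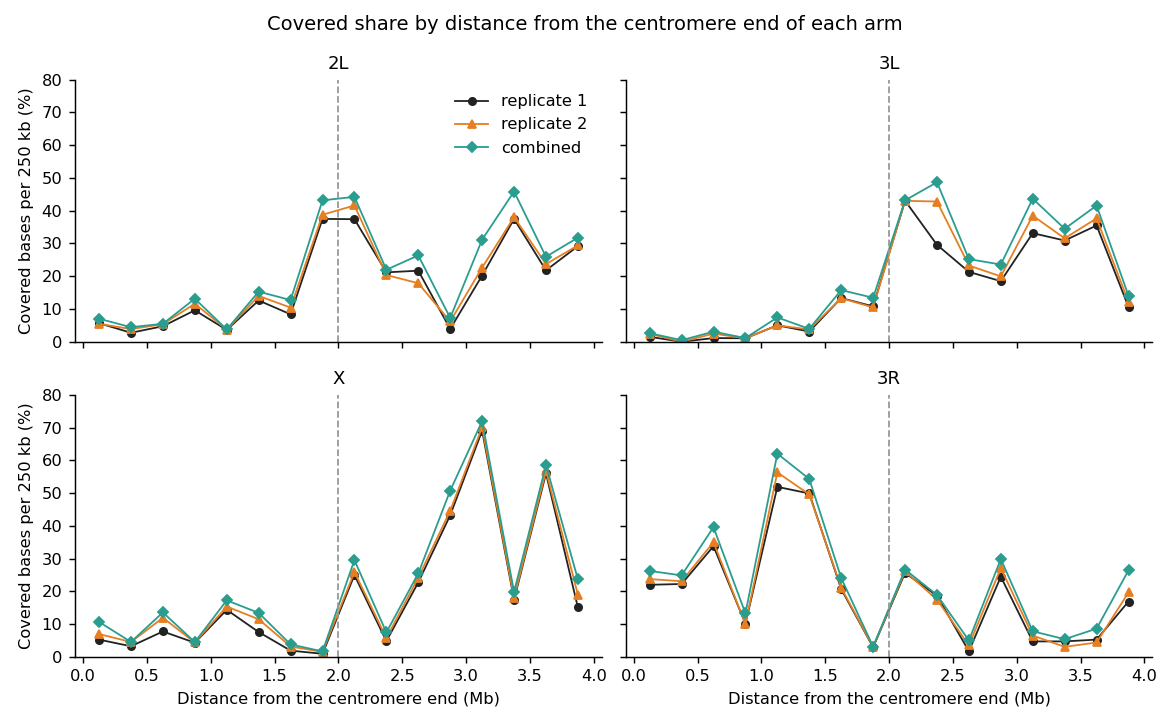
Covered share in bins of 250 kb (%, y axis) against distance from the centromere end (Mb, x axis) for 2L, 3L, X and 3R, with a line for each replicate and for the combined list and a dashed line at 2 Mb. On 3L the combined list goes from 13.4% to 43.2% across the dashed line, while 3R reaches 62.0% at 1 to 1.25 Mb.

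Single regions at the arm ends included some of high score. At the end of 2L the highest was 2.11 at 21023422 to 21042238, which is 18.8 kb wide, scored 1.99 and 2.21 in replicates 1 and 2, and was exceeded by 22 regions of the whole list. It is also the widest of that end and the member nearest to the 2 Mb boundary. The next were 1.88 at 21048326 to 21052464 (4.14 kb) and 1.67 at 21262412 to 21276452 (14.0 kb). The third widest was 13.0 kb at 21740804 to 21753768, with a score of 1.45. All 4 lay more than 1 Mb from the centromere end. The member nearest to that end, at 22962620 to 22963882, was 1.26 kb wide with a score of 0.379 and overlapped no region of either replicate.

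On 3R high scores were spread through the 2 Mb. The highest was 2.03 at 902518 to 913472 (11.0 kb, 2.06 and 2.18 in the replicates), followed by 1.80 at 1304106 to 1310352 (6.25 kb) and 1.72 at 735936 to 750314 (14.4 kb). The widest was 45.4 kb at 485000 to 530366, of which the replicates covered 96.2% and 98.3% with 3 and 2 regions. It was followed by the region at 1125648 to 1149742 with 24.1 kb. The one at 1284472 to 1303874, with 19.4 kb, was split into 3 and 4 regions. A region of 9.44 kb at 402 to 9842 opened the sequence, 5.12 kb from the centromere end by its midpoint, and scored 1.15 with 1.01 and 1.29 in the replicates.

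On 3L and X the highest scores were lower than on 2L and 3R. The median score at the X end was not clearly lower than at the 2L end. It was 0.606 against 0.568 in the combined list, 0.792 against 0.749 in replicate 1 and 0.771 against 0.789 in replicate 2. The 3 highest scores at the 3L end were 1.33 at 22789914 to 22797706, 1.05 at 23321502 to 23331802 and 1.03 at 22731950 to 22741438, and its widest regions were the second of these at 10.3 kb, 10.2 kb at 22818396 to 22828636 and the third at 9.49 kb. The member nearest to the centromere end of 3L, at 24530056 to 24536558, was 6.50 kb wide, scored 0.464 and was split into 2 regions in each replicate. A gap of 304 kb separated it from its neighbour. At the X end the highest score was 1.43 at 21924376 to 21926634, 2.26 kb wide, which had a score of 1.62 in replicate 2 and no counterpart in replicate 1. It was followed by 1.41 at 21495698 to 21501722 and 1.38 at 21210240 to 21215826, both found in both replicates. The widest at the X end was 21.0 kb at 21130838 to 21151858, covered to 70.9% and 96.9% by 3 and 2 regions of the replicates. The region at 22247972 to 22256490 had 8.52 kb. The one at 22229200 to 22237512 had 8.31 kb, of which the replicates covered only 36.9% and 40.1%. The member nearest to the centromere end of X lay at 22413694 to 22416982, scored 0.501 and was found in both.

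The boundary of the rule cut through marked sequence on 2L. The region just outside it there, at 20980424 to 21020828 (40.4 kb, score 1.37), reaches across the boundary. On 3L the nearest outside was the 114 kb region at 22287804 to 22401488 (score 1.68) and the nearest inside lay at 22707380 to 22712680 (0.815). On X these were 20391830 to 20396474 (1.08) and 20528684 to 20532806 (0.612), and on 3R 2170068 to 2172156 (0.440) and 1825814 to 1833560 (1.65).

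The next comparison asked whether the regions of each class were also weaker. Those of the Het sequences as a class had low median scores, and those of the arm ends pooled over the 4 arms did not. In replicates 1 and 2 the median score was 0.538 and 0.552 on the Het sequences and 0.781 and 0.790 at the arm ends. In the arm interiors it was 0.787 and 0.779. By arm, the medians of the ends lay below those of the interiors on 3L and X in both replicates. The end medians were 0.611 and 0.754 against 0.773 and 0.773 on 3L, and 0.792 and 0.771 against 0.830 and 0.839 on X. On 2L and 3R the ends were not lower, at 0.749 and 0.789 against 0.747 and 0.744, and 0.834 and 0.810 against 0.773 and 0.745. Within the Het class, 3LHet had medians of 0.548 and 0.494 and 3RHet of 0.537 and 0.546, while the 3 short sequences together stood at 0.518 over 9 regions in replicate 1 and 0.769 over 7 in replicate 2. On chromosome 4 the median score was 0.798 in replicate 1 and 0.681 in replicate 2. That spread spans the pooled medians of the arm ends and interiors, so no order between them can be read. Of the whole combined list 25% of regions score, by construction, above its upper quartile of 0.954. That score was passed by 10 of 66 regions on chromosome 4 (15.2%), 1 of 46 on the Het sequences (2.17%) and 62 of 228 at the arm ends (27.2%). Among the arm ends 3R passed it with 35 of 96 regions, 2L with 14 of 63, X with 10 of 41 and 3L with 3 of 28.

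Score and width move together in these lists, and the classes differ in width, so scores were also set side by side within bands of width. Below 2 kb the median scores of the combined list were 0.321 on chromosome 4, 0.317 on the Het sequences, 0.350 at the arm ends and 0.356 in the interiors. From 2 to 5 kb they were 0.548, 0.448, 0.601 and 0.566 in the same order. From 5 to 10 kb they were 0.836, 0.693, 0.950 and 0.903, the Het value resting on 2 regions. In each of these bands the Het sequences had the lowest median, below 2 kb by a margin over chromosome 4 that is small beside the spread of single regions, from 0.0548 to 0.527. The formula of the score is not stated.

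**Figure D3:**
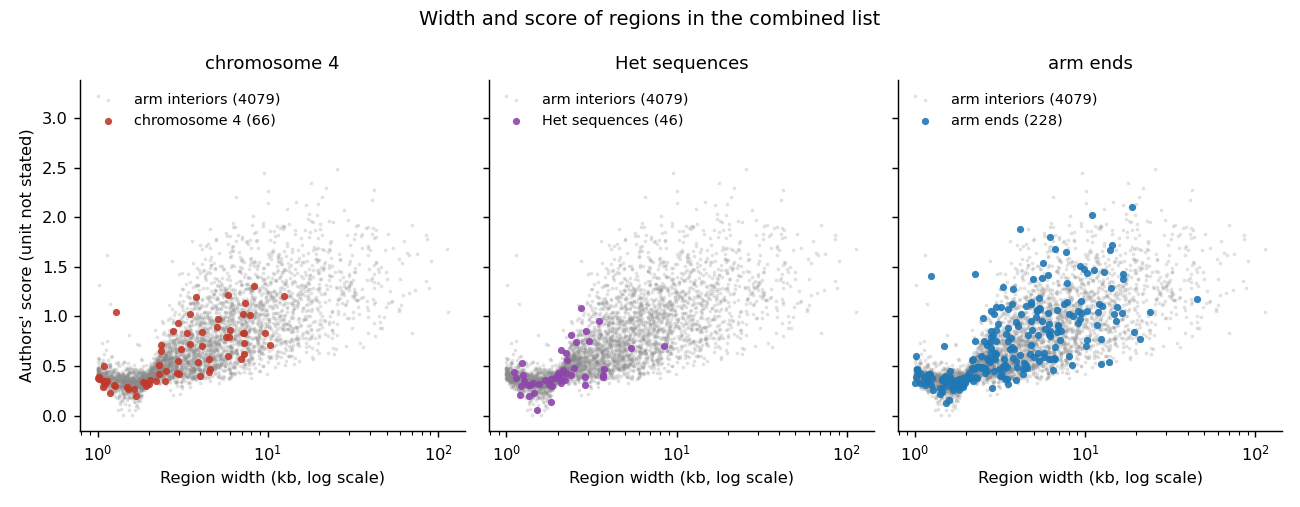
Authors' score (y axis, unit not stated) against region width (x axis, kb, log scale) for the 66 regions of chromosome 4, the 46 of the Het sequences and the 228 of the arm ends, each over the 4079 regions of the arm interiors in grey. Het regions are narrow, the widest being 8.40 kb, and the points of all 3 classes lie within the range of the grey points.

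The last comparison asked how far each class was found in both replicates. The share found in both was lowest on the Het sequences as a class, which also had the largest share of narrow regions. Over the whole combined list 70% of regions overlapped a region of each replicate by at least 1 bp and 16.1% overlapped none of either. Of the regions of chromosome 4, 44 of 66 (66.7%) were found in both and 12 (18.2%) in neither. Of the Het regions 21 of 46 (45.7%) were found in both and 13 (28.3%) in neither, 10 of the latter on 3LHet. Within the class 7 of 22 were found in both on 3LHet and 8 of 16 on 3RHet. On 2LHet, XHet and YHet together 6 of 8 (75%) were, and 12.5% of these 8 were under 2 kb, against 59.1% on 3LHet. Of the arm-end regions 166 of 228 (72.8%) were found in both and 36 (15.8%) in neither. Regions under 2 kb made up 43.5% of the Het regions, 33.3% of those on chromosome 4, 24.1% at the arm ends and 25.2% in the interiors. Regions found in a single replicate were mostly those of replicate 2, which held 9 against 1 on chromosome 4, 8 against 4 on the Het sequences and 22 against 4 at the arm ends. In the whole list this ratio was 496 to 285.

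Within bands of width the shares were closer. The band under 2 kb includes widths that neither replicate list holds. The narrowest region was 1.00 kb wide in the combined list and 1.30 kb in each replicate list. Under 2 kb, 1 of 20 Het regions (5%) was found in both, as were 4 of 22 on chromosome 4 (18.2%), 8 of 55 at the arm ends (14.5%) and 11.9% of 1028 in the interiors. From 2 to 5 kb, 18 of 24 Het regions (75%) were found in both, against 84.0% of 25 on chromosome 4, 84.0% of 94 at the arm ends and 82.1% of 1519 in the interiors. All 70 members between 5 and 10 kb and all 30 of at least 10 kb were found in both, near the 98.0% and 100% of the whole list in these bands.

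**Figure D4:**
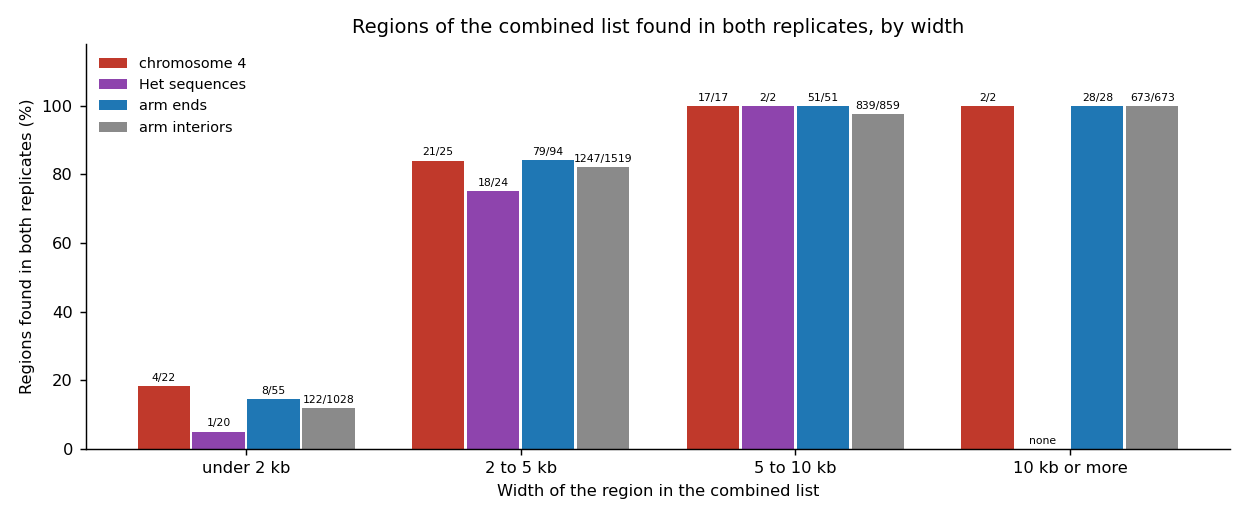
Share of regions in the combined list that overlapped a region of both replicates (%, y axis) by width band (x axis), for chromosome 4, the Het sequences, the arm ends and the arm interiors, with the counts above each bar. The step from under 2 kb to 2 to 5 kb, from 5% to 75% on the Het sequences, exceeds the differences between classes within a band.

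By bases, the replicates shared 78.7% of what either covered on chromosome 4 (173 of 219 kb), 57.7% on the Het sequences (47.9 of 83.1 kb), and 84.9% at the arm ends (909 of 1071 kb), against 85.5% in the arm interiors. Among the ends this Jaccard index was 88.1% on 3R, 86.7% on 2L, 80.9% on 3L and 72.5% on X. Among the Het sequences it was 86.6% on 2LHet, 54.7% on 3LHet, 53.6% on XHet and 52.9% on 3RHet, and YHet had no shared base. Seen from each replicate, 48 of 50 regions of replicate 1 on chromosome 4 met one of replicate 2, and 46 of 56 in the other direction. On the Het sequences these counts were 23 of 27 and 22 of 32, and at the arm ends 201 of 207 and 186 of 214. The scores of best-matching regions of the replicates had a Spearman's rho of 0.906 over 45 pairs on chromosome 4, 0.814 over 21 pairs on the Het sequences and 0.923 over 179 pairs at the arm ends. The matching Pearson's r were 0.910, 0.863 and 0.948. On 3RHet alone rho was 0.548 over 8 pairs, and on 3LHet 0.964 over 7. These are descriptions across regions, which share 2 libraries and a link between score and width.

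The combined list added bases outside both replicates in each class. These came to 31.3 kb on chromosome 4 (12.6% of its covered bases), 107 kb at the arm ends (9.10%) and 23.6% of the covered bases of the Het sequences, against 7.99% in the interiors. On 3LHet alone they were 17.1 kb, or 40.7%. The lists differed in their narrowest region, which was 1.00 kb wide in the combined list and 1.30 kb in each replicate list. What part this had in the bases outside both replicates, or in the regions found in neither, was not tested. Members found in neither replicate were narrow. Their median width was 1.26 kb, below the narrowest width of the replicate lists, and that of members found in both was 4.30 kb. Conversely, 2 regions of replicate 2 and none of replicate 1 lay in these classes without a combined region, at 2512969 to 2514343 on 3LHet and 21102880 to 21104371 on X.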

How the data were processed

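Region lists of 2 immunoprecipitated samples and of the replicate set were used, and the 2 inputs have no list here. The submitters' processing notes name Bowtie 0.12.7, and the file headers give FlyBase release 5. The region caller, its thresholds, the use of the inputs and how the combined list was made are unknown here. The deposited score per region is the authors' and has no stated unit. The 1 region marked as depleted was left out. Sequence lengths came from the file headers. Covered shares cut regions at a class boundary, and counts, widths and scores assign a region by its midpoint. Overlap means at least 1 bp. Values were computed with Python 3.11.15, numpy 2.4.6, scipy 1.17.1 and matplotlib 3.10.9. The interval arithmetic was tested on simulated data, with 0 mismatches in 200 draws against counts made base by base. No test was made across regions, which are not replicates. Depth is unknown, so precision is given only by the spread of 2 replicates.

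Named regions were, for chromosome 4, the Het sequences and each arm end, the 3 highest scores and the 3 widest, the region nearest to each centromere end, every region of a sequence with 5 or fewer, and those next to each boundary of the rule. Members, classes and named regions were chosen with earlier results of these data known. No gene was assigned, because the gene table at hand is on another release, and no sequence is printed. Alternatives changed the score threshold, minimum width, merging, length of the arm ends, replicates used and overlap rule.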

Additional observations from a re-analysis of the deposited data

Results flagged for a closer look

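The difference in covered share between arm end and interior had opposite signs on 3R and on the other arms in both replicates. It was 1.96 points in replicate 1 and 2.08 in replicate 2 on 3R. On 2L it was -12.2 and -12.1 points, on 3L -21.4 and -22.4, and on X -20.6 and -20.3. The difference between arms was not tested, and the sign on 3R changed with the length of the end.

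The unplaced sequence U, which no comparison above used, had 19 combined regions on its 10.0 Mb, and 8 and 10 in the replicates. It is given because it is signal outside the sequences compared, and these counts were not tested. Their median width was 1.94 kb in the combined list, and their median score was 0.783 there, 0.763 in replicate 1 and 1.07 in replicate 2.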

How the results depend on the processing

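The Het sequences were lowest of the 3 classes in all 48 alternative orderings, over 6 measures and the settings that could change each. The order of the other classes changed in 6 of them: the covered share with 3 Mb ends, the median score with 1 Mb ends and without replicate 2, the median width with 1 Mb ends, and the share found in both with regions of at least 2 kb and without 3R, where chromosome 4 and the arm ends were equal at 66.7%. Values follow in the order chromosome 4, Het sequences, arm ends unless stated. Filters on score and width were applied to all 3 lists, and the score filter cut each list at its own median. A replicate region that failed a filter no longer counted as a partner, which can lower the shares found in both. With the upper 50% of scores, covered shares were 9.55%, 0.301% and 9.08%, densities 18.9, 0.918 and 13.5 per Mb, median widths 4.34, 2.78 and 5.20 kb, median scores 0.958, 0.941 and 1.06, and Jaccard indices 75.7%, 30.5% and 83.7%. Only 10 Het regions of the combined list were kept, and 30.0% of them were found in both filtered replicate lists. The end minus interior differences were then -9.99 points on 2L, -18.4 on 3L, 1.53 on 3R and -18.1 on X. With regions of at least 2 kb, covered shares were 13.0%, 0.624% and 11.6%, densities 30.3, 2.09 and 21.6, median widths 3.32, 2.57 and 3.92 kb, median scores 0.827, 0.722 and 0.874, and shares found in both 88.6%, 30.8% and 81.5%. Against the unfiltered replicate lists, 18 of 24 Het regions of 2 to 5 kb and 2 of 2 from 5 to 10 kb were found in both. Jaccard indices were 83.4% on chromosome 4 and 47.0% on the Het sequences. The differences were -11.6 on 2L, -20.8 on 3L, 1.89 on 3R and -19.3 on X. Merging regions less than 500 bp apart gave median widths of 3.08, 2.01 and 3.86 kb, and at the arm ends a density of 22.1 and a median score of 0.800, with -12.2 points on 2L. Ends of 1 Mb were covered at 8.96%, with a density of 21.9, a median width of 2.86 kb, a median score of 0.730, a Jaccard index of 81.8% and differences of -16.8 on 2L, -24.6 on 3L, -2.95 on 3R and -20.0 on X. Ends of 3 Mb were covered at 16.1%, more than chromosome 4, with 28.3 regions per Mb, a median width of 3.71 kb, a median score of 0.804 and differences of -8.87, -13.2, -1.31 and -14.6 on 2L, 3L, 3R and X. The cause was not tested. Without 3R, a choice made after the data were seen, the arm ends were covered at 7.43%, with 18.2 regions per Mb, a median width of 3.10 kb, a median score of 0.761 and a Jaccard index of 81.1%. Overlap of at least 50% of both regions left 63.6% of arm-end regions found in both.

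With 1 replicate left out, the covered share ranged from 13.8% to 15.2% on chromosome 4, 0.964% to 1.22% on the Het sequences and 11.9% to 12.9% at the arm ends. The share of combined regions found in the remaining replicate ranged from 68.2% to 80.3%, 54.3% to 63.0% and 74.6% to 82.5%. No paired analysis was possible because the inputs, whose labels share the replicate numbers, have no region list here to set against the immunoprecipitated samples. Differences between classes and arms are given within each replicate. Read depth is unknown, and its part in which regions were called was not tested.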

Other observations

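Members of high score were nearly all found in both replicates, and the exceptions were chosen after their values were seen. Of the 73 members above the upper quartile of the combined scores, 3 (4.11%) were not in both, against 15 of 1407 (1.07%) in the whole list. The region at 1273338 to 1274578 on 3R, 1.24 kb wide with a score of 1.41, overlapped neither replicate. On chromosome 4 the region at 1325886 to 1327172, 1.29 kb wide with a score of 1.05, was found in replicate 1 alone and is the last of that sequence. The third is the region at 21924376 to 21926634 on X, found in replicate 2 alone, where its score was above or equal to 94.7% of the list.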
